A study of Mus musculus with 9 samples.

Results

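The genes that brake the cell cycle were compared between very small embryonic-like stem cells from bone marrow (VSEL), haematopoietic stem cells from the same tissue (HSC) and an embryonic stem cell line (ESC). The 9 genes encode 6 inhibitors of cyclin-dependent kinases (CDK) and the 3 pocket proteins: Cdkn1a, Cdkn1b, Cdkn2a, Cdkn2b, Cdkn2c, Cdkn2d, Rb1, Rbl1 and Rbl2. They were read from every probe set that the array's platform annotation assigns to them alone, 16 of the 45037 probe sets tested and 9 of the 18193 genes measured. Rbl2 was high in HSC, Cdkn1a was low in VSEL by 1 of its 2 probe sets, and Cdkn2d was low in ESC. Cdkn2c was higher in VSEL than in ESC, a call that was lost when any single VSEL or ESC library was left out. Its difference between VSEL and HSC was not called. Cdkn2a did not rise above background on any array.

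VSEL were sorted from the marrow of C57BL/6 mice aged 4 weeks as Sca-1-positive, lineage-negative cells without CD45, and HSC were sorted from the same kind of marrow as Sca-1-positive, lineage-negative cells with CD45. ESC-D3 is a single established line of pluripotent cells from a blastocyst of strain 129S2/SvPas, grown with leukaemia inhibitory factor at 10 ng/ml on 0.1% gelatin, so strain differs together with cell type in every comparison with ESC. Each library was made from 20 cells, and each cell type has 3 arrays. Whether libraries of 1 cell type stem from different animals or cultures is not stated, and the p-values therefore describe the spread among these libraries alone, which may be technical. VSEL arrays 2 and 3 differed in bright probe sets with an SD of 0.199, against at least 0.491 for every other pair within a group, and were averaged and counted as 1 library. This leaves 2 VSEL, 3 HSC and 3 ESC libraries, and every error given as ± is an SD over them. VSEL 1 differed from VSEL 2 and 3 with SDs of 2.06 and 2.16, against 0.491 to 0.724 within HSC and ESC. All VSEL means and contrasts thus rest on 2 unlike libraries. All levels are log2 RMA values per probe set, a scale on which levels of different probe sets cannot be compared with each other. Background on an array is the 95th percentile of 39 olfactory receptor genes, with values of 6.25 to 6.45 for VSEL arrays, 5.57 to 5.85 for HSC arrays and 5.62 to 5.69 for ESC arrays.

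Markers of the labelled cell types were checked first. Ptprc, which encodes the CD45 of the sort gate, read 3.24 to 3.59 on VSEL arrays, 13.40 to 13.68 on HSC arrays and 2.94 to 3.17 on ESC arrays. Of 10 measured pluripotency markers, 9 lay above background on each VSEL array, 1 to 2 on the HSC arrays and 9 to 10 on the ESC arrays. Of 10 measured HSC and progenitor markers, 3 to 4 exceeded background on VSEL arrays, 6 to 7 on HSC arrays and 4 to 5 on ESC arrays, but on the log2 scale their summed level was higher on VSEL arrays (12.37 to 12.74) than on HSC arrays (10.91 to 11.27), with 10.26 to 10.84 on ESC arrays. That sum rests on few genes in VSEL, led by Lmo2 on VSEL 1 (12.47) and by Tal1 on VSEL 2 and 3 (11.09 and 10.85). Of the 10 HSC and progenitor markers, 0 were higher and 1 lower in VSEL than in HSC, so they do not set HSC apart from VSEL here. The HSC arrays also had all 8 T and NK cell markers above background, against 1 to 2 in VSEL and 1 in ESC. Of 11 granulocyte and monocyte markers, 10 were above background on VSEL arrays, 11 on HSC arrays and 3 to 5 on ESC arrays. Of 8 erythroid markers, 6 were above background on each VSEL array, 5 to 6 on HSC arrays and 0 to 2 on ESC arrays. The lineage-negative gate of both marrow sorts is meant to remove mature blood cells, yet these lineage markers were present. In such bulk libraries, fewer cells of a type and less RNA per cell cannot be told apart.

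Progress from G1 into S phase is set by cyclin D with CDK4 or CDK6 and by cyclin E with CDK2, which phosphorylate the pocket proteins and thereby free E2F transcription factors. The INK4 inhibitors (Cdkn2a, Cdkn2b, Cdkn2c and Cdkn2d, encoding p16, p15, p18 and p19) bind CDK4 and CDK6, while the Cip/Kip inhibitors (Cdkn1a, encoding p21, and Cdkn1b, encoding p27) act mainly on CDK2 complexes. Of the pocket proteins, RB (Rb1) binds activating E2F factors, p107 (Rbl1) is made chiefly in cycling cells, and p130 (Rbl2) predominates in resting cells, where it forms the DREAM complex with E2F4 or E2F5 and the MuvB core. In mouse marrow, p18, p21, p27 and the pocket proteins are known for restraining stem and progenitor cell division, whereas mouse embryonic stem cells cycle with a short G1.

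Each of the 3 comparisons called 3 of the 16 member probe sets, which is 18.8% (limma, Benjamini-Hochberg adjusted p under 0.05 over all probe sets). VSEL against HSC called 14.2% of all probe sets, 8% higher and 6.19% lower, and 0 members were higher and 3 lower. VSEL against ESC called 14.1%, 7.13% higher and 6.93% lower, and 2 members were higher and 1 lower. HSC against ESC called 10.6%, 4.42% higher and 6.21% lower, and 3 members were higher and 0 lower. By genes, each represented by the probe set of highest mean, the calls were 2 of 9, 3 of 9 and 2 of 9 in these contrasts, against 18.3%, 17.9% and 15.3% of all genes. The moderated F test over the cell types called 5 of the 16 probe sets (18.9% of all) and 4 of the 9 genes (25.3% of all). These shares lie near the background or modestly above it, so the results concern single genes and not the set. The groups did not overlap for 8 of the 16 probe sets between VSEL and HSC, where 52.8% of all did not, for 9 between VSEL and ESC, where 54.5% did not, and for 5 between HSC and ESC, where 30% did not. Of the 16, 5 probe sets were above background on no array, namely the only one of Cdkn2a and further ones of Cdkn1b, Rb1 and Rbl1.

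**Figure D1:**
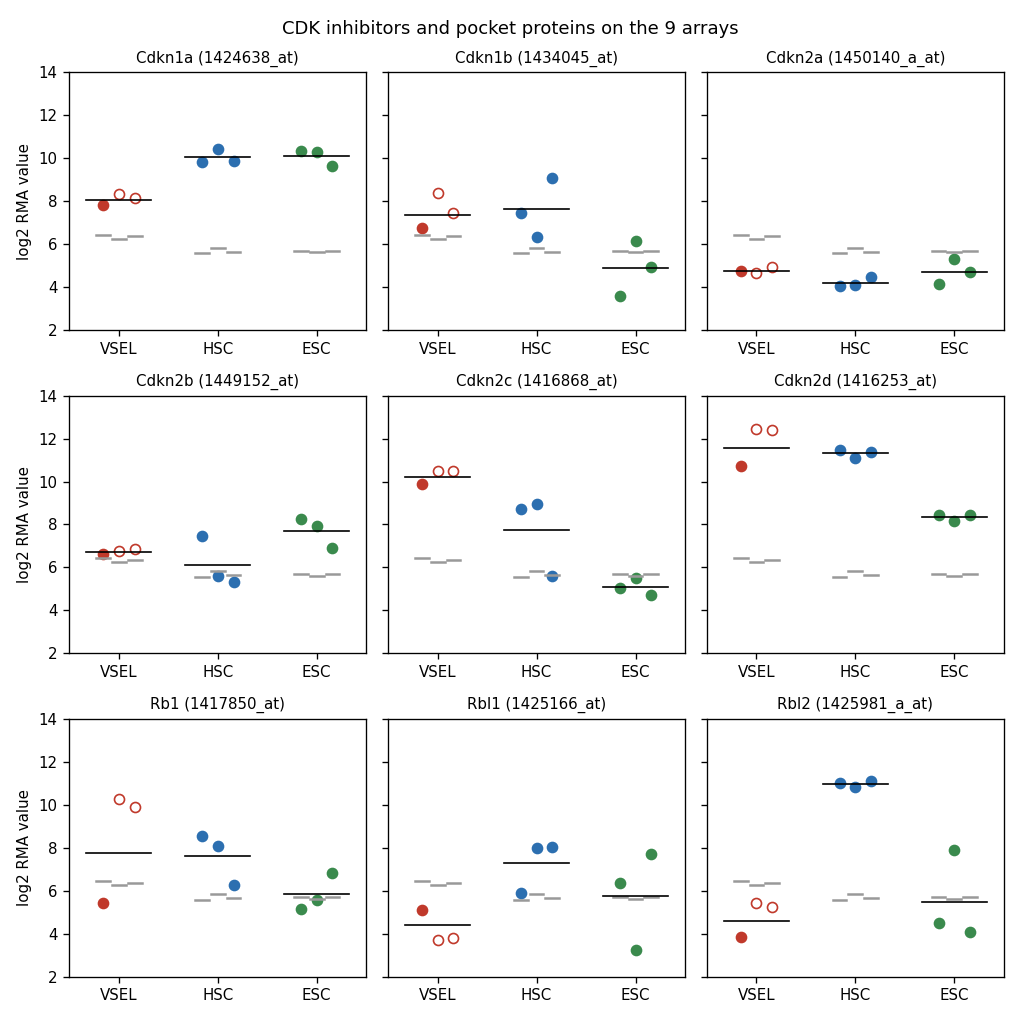
Log2 RMA values (vertical axis) of the 9 genes on each array, by the probe set with the highest mean. Filled points are single libraries, open red points are VSEL arrays 2 and 3, which count as 1 library, black lines are means over libraries and grey ticks the background of each array. Rbl2 stands above background on all 3 HSC arrays and on 1 ESC array, and Cdkn2a on none.

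The Cip/Kip inhibitor Cdkn1a encodes p21, the classical target of p53 and an arrest factor after DNA damage. By probe set 1424638_at it lay at 7.83, 8.32 and 8.17 on VSEL arrays 1, 2 and 3, at 9.81, 10.45 and 9.88 on the HSC arrays and at 10.36, 10.29 and 9.65 on the ESC arrays. Every VSEL array was below every other array, and HSC and ESC overlapped. The means were 8.04 ± 0.29 in VSEL, 10.05 ± 0.35 in HSC and 10.10 ± 0.39 in ESC. Cdkn1a thus fell by 2.01 log2 units in VSEL against HSC (SE 0.30, adjusted p = 0.0121), and it fell by 2.06 in VSEL against ESC (SE 0.30, adjusted p = 0.0113). HSC and ESC differed by -0.05 (SE 0.27, adjusted p = 0.947). After cyclic loess normalization the difference of VSEL from ESC was -1.29 and was not called (adjusted p = 0.0605). The other probe set, 1421679_a_at, did not call any difference. It read 6.94, 6.97 and 6.95 in VSEL, 6.62, 6.83 and 7.80 in HSC and 7.83, 8.17 and 7.51 in ESC. Its VSEL values lay inside the HSC range and below all ESC values (log2 difference of VSEL from HSC -0.14, SE 0.37, adjusted p = 0.818; of VSEL from ESC -0.89, SE 0.37, adjusted p = 0.158). Over the 8 libraries the probe sets correlated at r = 0.44, so the lower level in VSEL rests on 1424638_at.

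**Figure D2:**
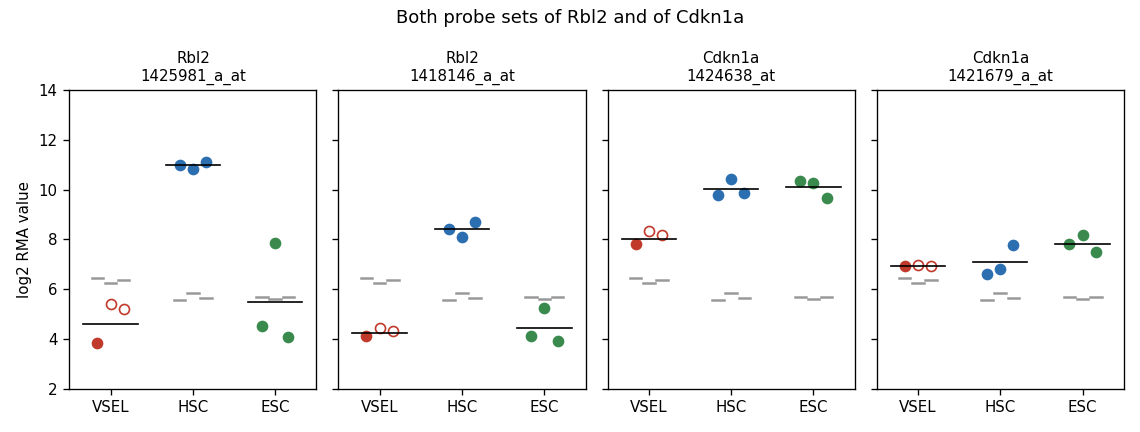
Log2 RMA values (vertical axis) of both probe sets of Rbl2 and of Cdkn1a on each array, with symbols as in the plot of the 9 genes. Both Rbl2 probe sets are high on the 3 HSC arrays alone, apart from 7.87 on 1 ESC array for 1425981_a_at, while the Cdkn1a probe sets disagree on HSC.

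RefSeq start sites are listed for 8 of the 9 genes, in 11 windows of 250 bases before to 50 bases after a start (build GRCm38.p6, which need not be that of the array annotation). The upstream Cdkn1a window is shown because p53 is the best known regulator of this gene and p53 targets were measured beside it. It lies on the plus strand at chr17:29090729-29091028, and the capitals mark CATGT and ACATG with any 4 bases between them, a pair of p53 half-site cores.
Cdkn1a: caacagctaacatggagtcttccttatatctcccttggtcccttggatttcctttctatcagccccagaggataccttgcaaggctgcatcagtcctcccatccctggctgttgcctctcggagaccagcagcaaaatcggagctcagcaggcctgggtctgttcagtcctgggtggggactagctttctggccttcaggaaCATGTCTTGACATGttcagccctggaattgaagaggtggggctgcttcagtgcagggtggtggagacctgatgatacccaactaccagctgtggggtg
This motif, which reads the same on both strands and was chosen after the sequence was seen, begins at position -48 from the start. It occurs in 1 of the 11 member windows and in 0.113% of the 32851 windows of this length. A match is a description of these letters, not a measured site. Of 16 measured genes for the p53 pathway, 3 were higher and 1 lower in VSEL than in HSC, 1 higher and 5 lower in VSEL than in ESC, and 1 higher and 5 lower in HSC than in ESC. Over all genes, these contrasts called 9.29% higher and 9.04% lower, 7.59% higher and 10.3% lower, and 6.38% higher and 8.89% lower. The same shares apply to every gene list below, and counts near them are no result about a list. Phlda3, a p53 target that restrains Akt, averaged 8.33 ± 0.11 in VSEL, 6.06 ± 0.26 in HSC and 10.24 ± 0.35 in ESC. It was higher in VSEL than in HSC (adjusted p = 0.00331), unlike Cdkn1a. Against ESC it was lower in VSEL (adjusted p = 0.00717), as Cdkn1a was. The part of p53 in the Cdkn1a result was not tested. Pmaip1, which encodes the death inducer Noxa, averaged 4.38 ± 0.03 in VSEL, 8.30 ± 0.68 in HSC and 8.03 ± 1.32 in ESC, lower in VSEL than in either (at least 3.8-fold against HSC, adjusted p = 0.0259, and at least 3.16-fold against ESC, adjusted p = 0.031, with VSEL at background). Ccng1, encoding cyclin G1, averaged 8.59 ± 0.31 in VSEL, 8.35 ± 0.42 in HSC and 11.51 ± 0.12 in ESC, and it was lower in VSEL and in HSC than in ESC (adjusted p = 0.00243 and 0.000421).

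Cdkn1b, which encodes p27, was not called in any comparison. Probe set 1434045_at read 6.77, 8.38 and 7.46 in VSEL, 7.43, 6.33 and 9.09 in HSC and 3.58, 6.15 and 4.93 in ESC. All VSEL and HSC values lay above all ESC values, 2 of which were under background, and VSEL and HSC overlapped. The log2 difference was 2.46 in VSEL against ESC (SE 1.02, adjusted p = 0.153) and 2.73 in HSC against ESC (SE 0.91, adjusted p = 0.143). With arrays centred on ribosomal proteins, which shifts the median of all probe sets up by 0.48 in that contrast, the first of these was 2.95 and was called (adjusted p = 0.0439). The second probe set, 1419497_at, stayed between 3.95 and 5.48 and above background on no array. Levels of p27 are also set by ubiquitin ligases. Of 11 genes for this turnover, 2 were higher and 0 lower in VSEL than in HSC, 1 higher and 1 lower in VSEL than in ESC, and 1 higher and 3 lower in HSC than in ESC. Skp2, the receptor of the ligase that marks p27 for destruction, averaged 5.35 ± 1.26 in HSC and 9.90 ± 0.52 in ESC (log2 difference -4.55, SE 0.66, adjusted p = 0.00694). HSC 2 (4.20) and HSC 3 (5.16) were under background for Skp2, so the size of this difference is uncertain. Cks1b, the partner of Skp2, averaged 13.85 ± 0.22 in VSEL, 11.71 ± 0.48 in HSC and 13.35 ± 0.11 in ESC, and HSC were below both (adjusted p = 0.00742 against VSEL and 0.00928 against ESC). Rnf123, a ligase subunit for p27 in G1, averaged 10.96 ± 1.06 in VSEL, 10.17 ± 0.37 in HSC and 6.76 ± 0.95 in ESC, and was lower in ESC than in either (adjusted p = 0.0131 and 0.0139).

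Among the INK4 genes, Cdkn2d, which encodes p19 of this family, separated both marrow populations from ESC. It read 10.71, 12.46 and 12.41 on VSEL arrays 1, 2 and 3, 11.46, 11.10 and 11.39 in HSC and 8.46, 8.14 and 8.43 in ESC. Every ESC value lay below every marrow value, and the HSC values fell between the VSEL libraries. The means were 11.57 ± 1.22 in VSEL, 11.32 ± 0.19 in HSC and 8.35 ± 0.18 in ESC. Cdkn2d was higher by 3.23 log2 units in VSEL against ESC (SE 0.47, adjusted p = 0.011) and by 2.97 in HSC against ESC (SE 0.42, adjusted p = 0.0065). VSEL and HSC differed by 0.25 (SE 0.47, adjusted p = 0.727). Without VSEL 1 that difference was 1.12 and was called (adjusted p = 0.037). Granulocyte and monocyte markers were likewise lowest in ESC and lower on VSEL 1 than on the other VSEL arrays. On the log2 scale their summed level spanned 16.09 to 17.66 on VSEL arrays, 16.81 to 17.00 on HSC arrays and 8.69 to 9.30 on ESC arrays. Within HSC the order was opposite, since HSC 1 was highest in Cdkn2d (11.46) and lowest in this sum (16.81). The part of granulocytes and monocytes in the Cdkn2d result was not tested.

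**Figure D3:**
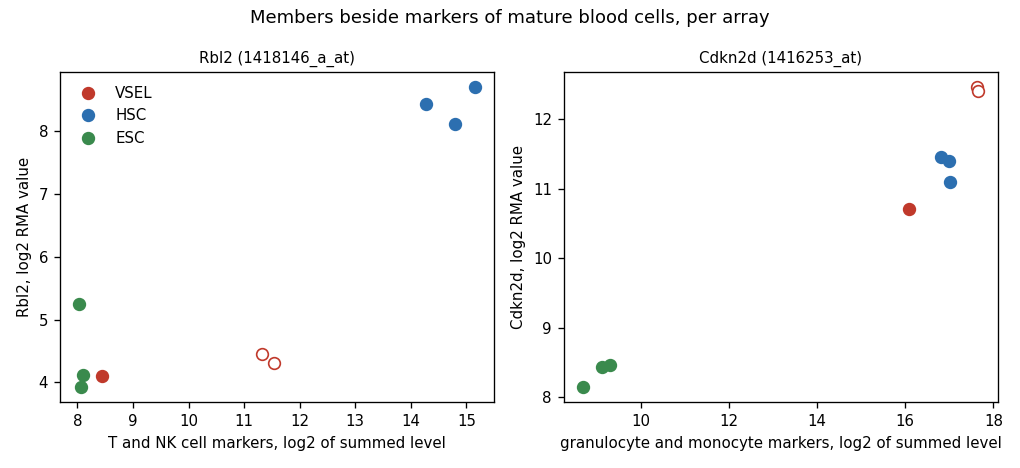
Rbl2 by 1418146_a_at (left) and Cdkn2d (right), log2 RMA values on the vertical axes, against the log2 of the summed level of T and NK cell markers and of granulocyte and monocyte markers on the same array. Each point is an array, and open red points are VSEL arrays 2 and 3. The HSC arrays are highest in Rbl2 and in T and NK markers (14.27 to 15.15), and the ESC arrays are lowest in Cdkn2d and in granulocyte and monocyte markers.

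Cdkn2c, which encodes p18, had its highest values in VSEL. It read 9.90, 10.49 and 10.51 in VSEL, 8.71, 8.95 and 5.59 in HSC and 5.04, 5.51 and 4.74 in ESC. The groups did not overlap, but HSC 3 lay next to the ESC arrays and under its background, as did all ESC arrays. The means were 10.20 ± 0.42 in VSEL, 7.75 ± 1.88 in HSC and 5.09 ± 0.39 in ESC. VSEL exceeded ESC by 5.11 log2 units (SE 1.0, adjusted p = 0.0256), and, taking ESC at background, by at least 23.2-fold. The call was lost with array weights and when VSEL 1, VSEL 2+3, ESC 1, ESC 2 or ESC 3 was left out (log2 difference 4.81 to 5.41, adjusted p = 0.0589 to 0.0801). VSEL against HSC gave 2.45 (SE 1.0, adjusted p = 0.145) and HSC against ESC 2.65 (SE 0.89, adjusted p = 0.146). Without HSC 3, HSC against ESC gave 3.74 and was called (adjusted p = 0.0019). Erythroid markers summed to between 14.68 and 15.91 on VSEL arrays, 10.94 and 12.01 on HSC arrays and 7.75 and 8.35 on ESC arrays (log2). Their groups stood in the order of the Cdkn2c means, but within groups the order differed, since HSC 3 was the highest HSC array (12.01) and VSEL 1 the highest VSEL array (15.91), the arrays where Cdkn2c was lowest. B lineage markers summed to between 13.87 and 15.18 on VSEL arrays, 11.01 and 13.35 on HSC arrays and 7.96 and 8.76 on ESC arrays. HSC 3 was the lowest HSC array in this sum, as in Cdkn2c, and VSEL 1 the highest VSEL array, unlike in Cdkn2c. The part of either lineage in the Cdkn2c values was not tested.

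Cdkn2b and Cdkn2a lie side by side in the Ink4 locus, which Polycomb complexes silence in many stem cells. Cdkn2b, encoding p15, a target of TGF-beta signalling, read 6.63, 6.74 and 6.85 in VSEL, 7.48, 5.59 and 5.33 in HSC and 8.25, 7.91 and 6.92 in ESC. ESC values lay above all VSEL values, and only HSC 1 was above background among the HSC arrays. No contrast was called, the largest being -1.56 in HSC against ESC (SE 0.63, adjusted p = 0.23). Without HSC 1 it was -2.23 and was called (adjusted p = 0.0334). Cdkn2a, which encodes both p16 and the p53 activator Arf, read 4.73, 4.68 and 4.95 in VSEL, 4.07, 4.08 and 4.48 in HSC and 4.15, 5.29 and 4.72 in ESC. No array was above background, and no contrast was called (adjusted p = 0.275, 0.926 and 0.42). Of 14 measured regulators of the locus, 1 was higher and 3 lower in VSEL than in HSC, 2 higher and 2 lower in VSEL than in ESC, and 3 higher and 3 lower in HSC than in ESC. Cbx8, a Polycomb subunit that binds methylated histone H3, averaged 5.55 ± 0.25 in VSEL, 7.50 ± 0.25 in HSC and 5.45 ± 0.29 in ESC, and was higher in HSC than in either (adjusted p = 0.00523 and 0.00162; at least 2.19-fold lower in VSEL than in HSC, with VSEL at background), although another probe set of the gene was called in the opposite direction in VSEL against HSC. Phc1, a subunit of Polycomb complex PRC1, averaged 9.63 ± 0.10 in VSEL, 8.47 ± 1.06 in HSC and 12.31 ± 0.08 in ESC, lower in VSEL and in HSC than in ESC (adjusted p = 0.0289 and 0.00434). Kdm6b, a demethylase that removes the Polycomb mark, averaged 10.81 ± 0.53 in HSC and 7.91 ± 0.35 in ESC (adjusted p = 0.0463).

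Among the pocket proteins, Rbl2 was called in both comparisons with HSC, and by both of its probe sets. By 1425981_a_at it read 3.85, 5.40 and 5.22 in VSEL, 10.99, 10.84 and 11.11 in HSC and 4.50, 7.87 and 4.06 in ESC. By 1418146_a_at it read 4.11, 4.45 and 4.31 in VSEL, 8.42, 8.10 and 8.69 in HSC and 4.11, 5.25 and 3.92 in ESC. All HSC values lay above all others, no VSEL array was above background by either probe set, and ESC 2 was the highest ESC array by both. By 1418146_a_at the means were 4.24 ± 0.19 in VSEL, 8.40 ± 0.29 in HSC and 4.43 ± 0.72 in ESC. Rbl2 fell by 4.16 log2 units in VSEL against HSC (SE 0.41, adjusted p = 0.00243), and it was higher by 3.98 in HSC against ESC (SE 0.37, adjusted p = 0.00108). With the dim group taken at background, Rbl2 by this probe set was at least 4.09-fold lower in VSEL than in HSC and at least 6.69-fold higher in HSC than in ESC. By 1425981_a_at the differences were -6.40 (SE 1.14, adjusted p = 0.0197) and 5.50 (SE 1.02, adjusted p = 0.0192), and by the same bound Rbl2 was at least 24.4-fold lower in VSEL than in HSC. These second calls depend on single libraries. That against VSEL was lost with array weights and without VSEL 1, HSC 1 or HSC 3 (-6.41 to -5.67, adjusted p = 0.0535 to 0.0715), and that against ESC without any 1 of the HSC arrays, ESC 1 or ESC 3 (4.79 to 5.57, adjusted p = 0.0555 to 0.068). VSEL and ESC were not called by either probe set (adjusted p = 0.626 and 0.793).

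Summed over the 8 T and NK cell markers, VSEL arrays had a log2 level between 8.45 and 11.54, HSC arrays between 14.27 and 15.15 and ESC arrays between 8.04 and 8.10, so these markers were high on the same arrays as Rbl2. Cd3g, a chain of the T cell receptor complex, was under background at 4.18 to 4.55 on VSEL arrays, was at 12.55 to 13.01 on HSC arrays and was again under background at 3.81 to 4.20 on ESC arrays. Their part in the Rbl2 result was not tested. Nkg7, a cytotoxic granule gene, carried the spread of the sum among VSEL arrays, with 4.95, 11.11 and 11.35 on VSEL 1, 2 and 3. Over the 8 libraries, among 5317 genes that vary by an SD of at least 1, those with the highest correlation to 1418146_a_at were Sit1 (r = 0.99), the T cell surface gene Thy1 (0.99) and Fbxl17 (0.99). Those nearest to 1425981_a_at were Foxo1 (0.99), Rtp4 (0.99) and Cd6 (0.99), a lymphocyte receptor gene. For Cdkn2d they were Fcnb (0.99), Tgfbr2 (0.99) and Mpo (0.99), the last a granule enzyme of neutrophil precursors, for Cdkn2c Nfe2 (0.96), Rsad2 (0.95) and Ighv14-2 (0.95), and for Cdkn1a by 1424638_at Babam2 (0.99), Dmtf1 (0.99) and C9orf72 (0.99). These correlations describe 8 libraries of 3 cell types and carry no test.

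The start of Rbl2 is shown because its level separated HSC from both other cell types, and that of Cdkn2d because it separated the marrow cells from ESC. The Rbl2 window lies on the plus strand at chr8:91069807-91070106 and the Cdkn2d window on the minus strand at chr9:21291160-21291459 (RefSeq, GRCm38.p6). Capitals mark the GC box GGGCGG on either strand, a site read by Sp factors, which 9 of the 11 member windows and 35.7% of all windows hold.
Rbl2: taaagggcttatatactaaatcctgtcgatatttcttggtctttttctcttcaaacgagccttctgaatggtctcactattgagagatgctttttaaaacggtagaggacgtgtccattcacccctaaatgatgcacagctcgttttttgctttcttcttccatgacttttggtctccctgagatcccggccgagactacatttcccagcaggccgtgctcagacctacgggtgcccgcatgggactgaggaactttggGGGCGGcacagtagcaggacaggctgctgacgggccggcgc
Cdkn2d: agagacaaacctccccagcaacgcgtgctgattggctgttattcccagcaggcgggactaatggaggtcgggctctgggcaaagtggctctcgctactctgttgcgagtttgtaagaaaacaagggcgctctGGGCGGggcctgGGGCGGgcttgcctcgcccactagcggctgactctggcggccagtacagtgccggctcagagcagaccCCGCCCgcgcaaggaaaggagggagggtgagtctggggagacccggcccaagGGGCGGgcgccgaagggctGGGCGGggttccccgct
The Rbl2 window holds 1 such match and the Cdkn2d window 5. Neither holds the E2F letters searched, which were TTTCCCGC, TTTCGCGC, TTTGCCGC and TTTGGCGC on both strands. The only member window with the p53 motif, that of Cdkn1a, holds 0 E2F matches, so no overlap of the motifs could arise.

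Rbl1, which encodes p107, and Rb1 were not called. Rbl1 by 1425166_at read 5.08, 3.70 and 3.80 in VSEL, 5.87, 7.97 and 8.04 in HSC and 6.35, 3.25 and 7.70 in ESC. No VSEL array was above background, all HSC arrays were, and ESC spanned both (VSEL minus HSC -2.88, SE 1.38, adjusted p = 0.199). By 1424156_at it read 4.27, 5.23 and 5.13 in VSEL, 8.52, 4.02 and 8.71 in HSC and 6.35, 6.10 and 3.94 in ESC. Again no VSEL array was above background, but the low arrays were now HSC 2 and ESC 3 in place of ESC 2, and these probe sets correlated at r = 0.04 over the libraries. The remaining 2 probe sets of Rbl1 stayed between 3.29 and 5.0, above background on no array. The start of Rbl1 is shown because it is one of 2 member windows with an E2F match, the other being a start of Cdkn2a, while 2.26% of all windows hold one. It lies on the minus strand at chr2:157204485-157204784 (RefSeq, GRCm38.p6), and the capitals mark the match, which begins at position -18 from the start.
Rbl1: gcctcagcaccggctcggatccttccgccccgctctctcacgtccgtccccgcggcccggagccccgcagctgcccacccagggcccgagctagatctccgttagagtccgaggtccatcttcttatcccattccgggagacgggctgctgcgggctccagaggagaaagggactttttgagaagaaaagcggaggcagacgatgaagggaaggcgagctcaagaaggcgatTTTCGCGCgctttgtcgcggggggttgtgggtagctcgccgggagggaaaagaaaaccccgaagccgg
Rb1 by 1417850_at read 5.44, 10.28 and 9.88 in VSEL, 8.53, 8.07 and 6.26 in HSC and 5.14, 5.57 and 6.84 in ESC. VSEL 1 was under background while VSEL 2 and 3 were the highest of all arrays, a gap of 4.64 log2 units between the 2 VSEL libraries. The difference of VSEL from HSC was 0.14 (SE 1.42, adjusted p = 0.952) and that of VSEL from ESC 1.91 (SE 1.42, adjusted p = 0.389), which turned to -0.41 without VSEL 2+3. Pan-leukocyte markers differed in the same sense, with summed levels of 13.24 on VSEL 1 and 15.47 and 15.51 on VSEL 2 and 3. The other Rb1 probe set read 2.99 to 4.51 and was above background on no array.

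**Figure D4:**
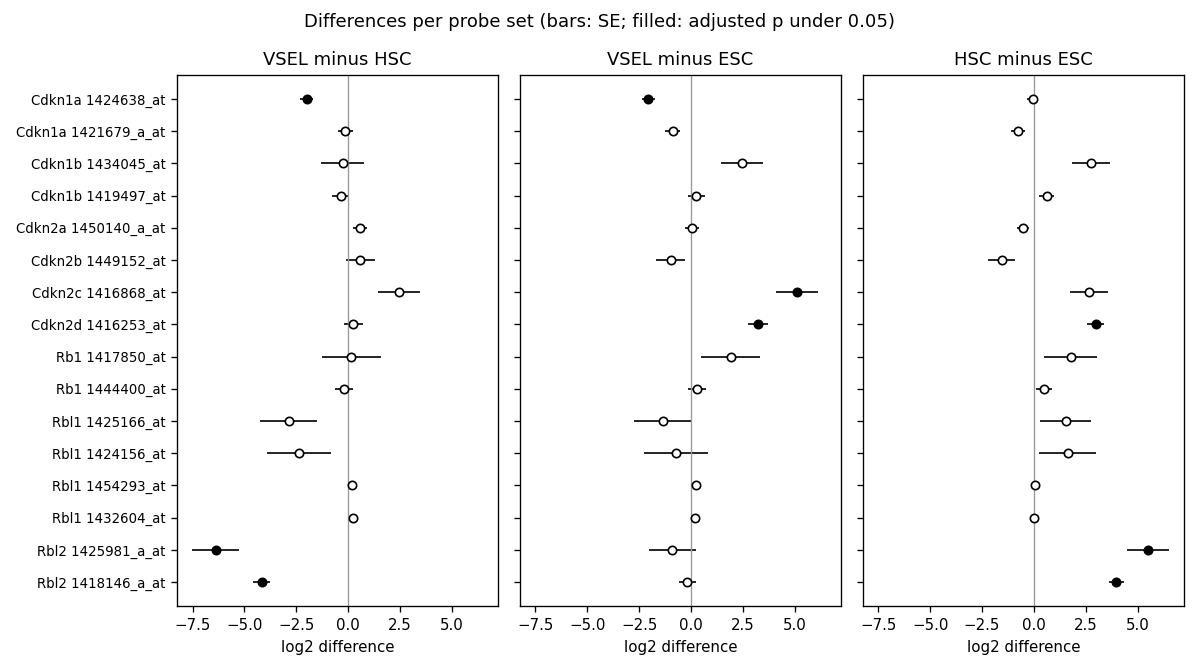
Log2 difference (horizontal axis) of each of the 16 probe sets in the 3 comparisons, with bars for the SE and filled points for an adjusted p under 0.05. The fitted differences of Rbl2 by 1425981_a_at are the largest in VSEL minus HSC and in HSC minus ESC, each against a group with at most 1 array above background, and Cdkn2c and Cdkn2d lead the positive differences in VSEL minus ESC.

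The targets held down by pocket proteins were read from lists of E2F target genes and mitotic genes. In VSEL against HSC, where 9.29% of all genes were higher and 9.04% lower, 9 of 19 measured E2F target genes of DNA replication were higher and 0 lower, with a median log2 difference of 1.56 against 0.22 over all genes. Of 16 mitotic genes 12 were higher and 0 lower, with a median of 2.95. In HSC against ESC, where 6.38% were higher and 8.89% lower, these lists had 0 higher and 9 lower (median -1.81) and 0 higher and 13 lower (median -2.83), against a median of -0.04 over all genes. VSEL against ESC, with 7.59% higher and 10.3% lower overall and a median of 0.11, had 3 higher and 1 lower among the E2F targets (median -0.08) and 2 higher and 2 lower among the mitotic genes (median -0.25). When single libraries were left out, the count higher in VSEL than in HSC was 5 to 9 for E2F targets, lowest without HSC 1, and 8 to 9 for mitotic genes; with ribosomal centring these were 14 and 14. Ribosomal centring called 36.3% of all probe sets in VSEL against HSC, against 14.2% as reported, and 82.3% of its calls were higher. The 14 and 14 therefore stand beside a shift of the whole table. The count lower in HSC than in ESC was 7 to 12 and 10 to 14 when single libraries were left out. Markers of some blood lineages moved in VSEL against HSC as well. Of 8 erythroid markers 4 were higher and 0 lower (median 2.92), and of 7 B lineage markers 3 were higher and 0 lower. Of 8 T and NK cell markers 0 were higher and 7 lower. Granulocyte and monocyte markers did not move, with 0 of 11 higher and 0 lower (median -0.08). The part of blood lineages in the E2F target and mitotic results was not tested. The small counts of VSEL against ESC ranged from 0 to 4 when each library was left out, and both medians of that contrast turned positive, 0.47 and 0.45, after cyclic loess. Rrm2, a subunit of ribonucleotide reductase, averaged 12.66 ± 0.21 in VSEL, 8.83 ± 0.41 in HSC and 11.70 ± 0.09 in ESC, lower in HSC than in either (adjusted p = 0.000451 and 0.000448). Cenpf, a centromere protein gene of dividing cells, averaged 9.57 ± 1.13 in VSEL and 4.28 ± 0.60 in HSC, where it was not above background (at least 14.7-fold higher in VSEL, adjusted p = 0.00554).

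**Figure D5:**
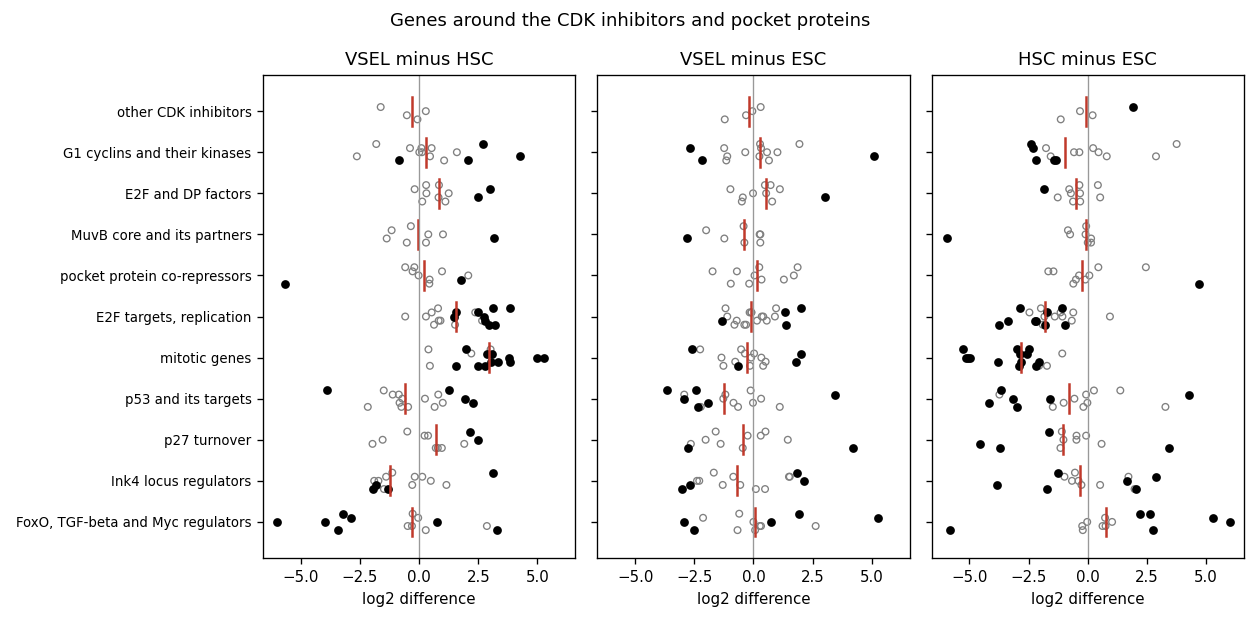
Log2 difference (horizontal axis) of each measured gene in 11 lists of partners, targets and regulators in the 3 comparisons. Filled points have an adjusted p under 0.05 and red bars are list medians, which for mitotic genes are 2.95 in VSEL minus HSC, -0.25 in VSEL minus ESC and -2.83 in HSC minus ESC.

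Of 14 G1 cyclins and kinases, 3 were higher and 1 lower in VSEL than in HSC, 1 higher and 2 lower in VSEL than in ESC, and 0 higher and 5 lower in HSC than in ESC. Ccne2, encoding cyclin E2, averaged 8.63 ± 0.39 in VSEL, 4.35 ± 0.90 in HSC and 3.55 ± 0.81 in ESC, higher in VSEL than in either (adjusted p = 0.0119 and 0.0071). No HSC or ESC array was above background, so VSEL were at least 7.68-fold above HSC and at least 7.84-fold above ESC. Ccne1, encoding cyclin E1, was higher in VSEL than in HSC (11.45 ± 0.35 and 9.37 ± 0.22, adjusted p = 0.00403). Cdc25a, the phosphatase that activates CDK2, averaged 7.14 ± 0.17 in VSEL, 8.0 ± 0.14 in HSC and 9.32 ± 0.29 in ESC, lower in VSEL than in either (adjusted p = 0.0394 and 0.00243). Ccnd1, encoding cyclin D1, was lower in HSC than in ESC (6.86 ± 0.92 and 9.07 ± 0.51, adjusted p = 0.0376).

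Of the 10 E2F and DP factors, 2 were higher and 0 lower in VSEL than in HSC, 1 higher and 0 lower in VSEL than in ESC, and 0 higher and 1 lower in HSC than in ESC. E2f2, an activating E2F, averaged 11.51 ± 0.08 in VSEL, 9.02 ± 0.67 in HSC and 8.49 ± 0.07 in ESC, higher in VSEL than in either (adjusted p = 0.0102 and 0.00568). Tfdp1, the common partner of E2F factors, averaged 12.15 ± 0.59 in VSEL, 9.18 ± 0.65 in HSC and 11.04 ± 0.21 in ESC, lower in HSC than in either (adjusted p = 0.00956 and 0.0267). Of the 8 genes for the MuvB core and its partners, Mybl2 was the only one called in any comparison. It encodes B-Myb, which replaces p130 on MuvB in cycling cells, and averaged 9.28 ± 0.14 in VSEL, 6.13 ± 0.73 in HSC and 12.08 ± 0.07 in ESC. The order was ESC above VSEL above HSC, with log2 differences of 3.15 in VSEL against HSC (adjusted p = 0.00593), -2.80 in VSEL against ESC (adjusted p = 0.00961) and -5.94 in HSC against ESC (adjusted p = 0.00015). HSC, the group with high Rbl2, had the lowest Mybl2, which on HSC 2 was under background (5.32 against 5.85). A link between the levels of these genes was not tested.

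Of 10 measured co-repressors that bind pocket proteins, 1 was higher and 1 lower in VSEL than in HSC, none was called in VSEL against ESC and 1 was higher in HSC than in ESC. Smarca2, the Brm motor of a chromatin remodelling complex, averaged 3.58 ± 0.18 in VSEL, 9.24 ± 1.06 in HSC and 4.53 ± 0.68 in ESC. It was highest in HSC, as was Rbl2 (adjusted p = 0.00443 against VSEL and 0.00373 against ESC). For neither gene was VSEL against ESC called (adjusted p = 0.351 for Smarca2). With the dim group at background, it was at least 7.31-fold lower in VSEL than in HSC and at least 11.9-fold higher in HSC than in ESC. Of 13 FoxO, TGF-beta and Myc genes, 2 were higher and 5 lower in VSEL than in HSC, 3 higher and 2 lower in VSEL than in ESC, and 5 higher and 1 lower in HSC than in ESC. Foxo1, whose family induces Cdkn1b and Rbl2 in other settings, averaged 6.71 ± 0.05 in VSEL, 10.13 ± 0.09 in HSC and 7.39 ± 1.0 in ESC, highest in HSC (adjusted p = 0.0124 against VSEL and 0.0136 against ESC). Mycn, which encodes N-Myc, averaged 7.65 ± 0.11 in VSEL, 4.35 ± 0.88 in HSC and 10.18 ± 0.31 in ESC, with all 3 differences called (adjusted p = 0.0112, 0.0247 and 0.000422). HSC were not above background, so Mycn was at least 3.89-fold higher in VSEL than in HSC and at least 22.4-fold lower in HSC than in ESC. Of 4 other CDK inhibitor genes, 1 was called in 1 comparison, Cdk2ap2 at 12.32 ± 0.31 in HSC and 10.39 ± 0.14 in ESC (adjusted p = 0.0282).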

How the data were processed

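Gene expression was measured on 9 Affymetrix mouse arrays, 3 each for VSEL, HSC and ESC, from cDNA of 20 cells that was amplified by PCR and labelled by in vitro transcription, per the labels' protocols. The authors deposited log2 values per probe set. The submitters' processing notes list RMA and Partek 6.5, with settings not given in the sources used here. RMA is meant to correct background, equalize distributions between arrays and summarise the probes of a set, so small or shared shifts of level can be lost. The deposited arrays were still unequal in distribution, because quantile normalization of them changed results. It moved the log2 difference of Cdkn1a by 1424638_at in VSEL against HSC from -2.01 to -1.53. The values were used as deposited, and their precision is limited by how few arrays there are.

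Of 45101 probe sets, 64 controls were left out. Of the rest, 34945 had 1 gene, 932 several and 9160 none listed, and 34741 symbols were updated through gene identifiers in the RefSeq table of GRCm38.p6. A gene was summarised by its probe set with the highest mean. All 45037 probe sets were fitted together by a linear model with moderated two-sided tests (R 4.3.3, limma 3.58.1, 5 residual degrees of freedom), with adjustment by Benjamini-Hochberg within a contrast. The fit assumes 1 spread for all cell types. It was tested on simulated data with the same spread in every group, so that test could not check this assumption. The members and gene lists were chosen with earlier results of these data known. Values of all probe sets of the members are given, some as a range and some without the probe set's identifier. From each list, only genes among the 3 largest called differences in a direction are named. Genes listed as alike had a mean above the median of genes and an SD of at least 1. Alternatives were other normalizations, filters, weights, units, fits and left-out libraries.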

Additional observations from a re-analysis of the deposited data

How the results depend on the processing

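The 3, 3 and 3 members called in VSEL against HSC, VSEL against ESC and HSC against ESC, and the 5 called by the F test, were the same in number with all 9 arrays kept separate, with the replicate number as a block on those 9 arrays, and after another quantile normalization. The replicate numbers do not pair the arrays, since deviations of same-numbered arrays correlated at -0.09 to 0.16. Without probe sets that can match several transcripts, which removes both of Rbl2, the counts were 1 in VSEL against HSC, 1 in HSC against ESC and 3 by the F test, by construction. With arrays centred on 49 ribosomal protein genes, 6 of the 16 were called in VSEL against ESC, where 55% of all probe sets were called. The median of all probe sets then moved by 0.29, 0.48 and 0.19 in the 3 contrasts. Leaving out single libraries gave 2 to 3, 2 to 3, 2 to 4 and 3 to 5. A group left with 1 library is assumed to vary like the others. The sign changed only in differences of these members that were not called as reported, and the cause was not tested. Leaving out single libraries gave, in VSEL against HSC, -0.91 to 0.47 for Cdkn1b, -0.61 to 1.12 for Cdkn2d and -2.18 (-0.54 without HSC 3) to 2.46 for Rb1. In VSEL against ESC it gave -0.23 to 0.34 for Cdkn2a, -0.41 to 4.23 for Rb1 and -1.63 (without VSEL 2+3; -1.61 without ESC 3) to 0.30 for Rbl2 by 1425981_a_at, and in HSC against ESC -0.28 to 0.074 for Cdkn1a. Other settings turned Cdkn1b in VSEL against HSC to 0.30 (quantile) and 0.025 (ribosomal centring), Cdkn2a in VSEL against ESC to -0.12 (quantile) and -0.25 (cyclic loess), and Cdkn1a in HSC against ESC to 0.23 (cyclic loess) and 0.13 (ribosomal centring). Over all probe sets the called counts were 6389, 6334, 4788 and, by the F test, 8530, and ranged over 2435 to 16355, 2734 to 24770, 3618 to 5654 and 5170 to 23671 in the alternatives that tested them all. Except in HSC against ESC, the highest counts came with ribosomal centring. That centring moved the share of calls that were higher to 82.3%, 87.5% and 49.9%, against 56.4%, 50.7% and 41.6% as reported.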
